A study of Mus musculus with 16 samples.

Results

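The respiratory chain genes of E14Tg2A mouse embryonic stem cells were compared between cells grown with nickel and untreated cells, setting genes of the mitochondrial genome against nuclear genes, complex by complex. Members were all genes whose symbol begins with mt-, the subunit families Nduf (complex I), Uqcr (complex III), Cox4 to Cox8 (complex IV) and Atp5 (ATP synthase, complex V), and Sdha to Sdhd (complex II), with an RPKM of at least 1 in any group. RPKM counts the reads on each kilobase of a transcript, relative to the size of the library. Of 26239 genes in the tables, 126 carried such a symbol and 114 reached the limit. They comprised 11 of 13 mitochondrial mRNA genes, both ribosomal RNA genes, 17 of 22 tRNA genes and 84 of 89 nuclear genes, of which 39 belonged to complex I, 4 to complex II, 8 to complex III, 16 to complex IV and 17 to complex V. In every group 111 members were above the limit, and Cox7b2, Cox8c and Ndufs5 were above it in some groups. Closest inside the limit were Cox8c, with a highest RPKM of 1.69, and Cox7b2, with 1.96. Closest outside it were Ndufb4c, with 0.984, and Cox7c-ps1, with 0.898. The symbol rule leaves out Cyc1 and Ndufab1, which also encode parts of complexes III and I.

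Wild-type E14Tg2A cells, kept in serum medium with LIF, received NiCl2 at 100, 150 or 200 µM, renewed at each passage, or none, and were collected on day 4 or day 6. Each of the 8 groups held 2 libraries (replicates A and B), made with a stranded mRNA kit, 16 libraries in all. The deposited tables hold a single RPKM for each group, so all RPKM values below are the authors' values without an SD. Each log2 fold change is nickel over untreated cells of the same day, from the authors' deposited tables, followed by ± a standard error worked back from the authors' p-value. A gene was called where the authors' adjusted p was under 0.05. The labels do not say whether replicates A and B were separate cultures, and the p-values then measure only the spread between these libraries, which may be technical. The 3 doses of a day share the same untreated libraries. Steps in the low RPKM values of single-exon genes placed the depths between 34 and 76.7 megareads per library. The 150 µM group of day 6 held the most unequal pair, with 34 and 60.9 megareads. All 8 embryonic stem cell markers examined, among them Pou5f1 and Sox2, lay between RPKM 138 and 4660 in every group, whereas 6 fibroblast markers together summed to between 6.19 and 12.8.

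The respiratory chain passes electrons from NADH and succinate through complexes I to IV to oxygen, and complex V uses the resulting proton gradient to make ATP. Complexes I, III, IV and V are built from proteins of both genomes, whereas complex II is wholly nuclear. The circular mitochondrial genome is transcribed from both strands as long precursors that are cut into 2 rRNAs, 22 tRNAs and 13 mRNAs, with the rRNA genes next to the start of heavy-strand transcription. RNAs cut from 1 precursor are transcribed together, while each nuclear gene has its own promoter.

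The levels of the mitochondrial mRNAs fell into separate ranges, and their sequences bear on what can be read from them. In untreated day 4 cells mt-Co1, the catalytic subunit of cytochrome oxidase, had an RPKM of 7360, mt-Nd1 2780, mt-Cytb 2070, mt-Nd2 1100, mt-Nd5 880, mt-Nd6 823 and mt-Nd4 696. The other subunits were listed far lower: mt-Atp8 at 7.9, mt-Co2 at 5.68, mt-Atp6 at 4.63 and mt-Co3 at 3.46, with mt-Nd3 at 0.563 and mt-Nd4l at 0.53, both below the limit. An annotated copy of mitochondrial DNA lies on the minus strand of chromosome 1 (GRCm38, GENCODE M21). The whole aligned length of mt-Co2 (681 bases), mt-Atp6 (678), mt-Co3 (783) and mt-Nd4l (294) was identical to a transcript of that copy, and mt-Nd3 differed at 1 of 345 bases. Of all 50-base stretches of mt-Co2, 100% also occur in another annotated transcript. The shares were 99.9% for mt-Co3, 99.5% for mt-Atp6, 98.8% for mt-Nd4l, 98.0% for mt-Nd3, 62.2% for mt-Nd4, 51.1% for mt-Co1, 8.19% for mt-Nd2 and 7.61% for mt-Nd5, and 0 for mt-Nd1, mt-Nd6, mt-Cytb and mt-Atp8. The 5 genes with shares near 100% all had low values. Also low was mt-Atp8, with a share of 0, but the shares count annotated transcripts only. The copies of mt-Co2 and mt-Atp6 lie at chr1:24614885-24615565 and chr1:24613974-24614651. Bases between them that belong to no annotated transcript were not searched, so a copy of mt-Atp8 there would not be counted. How the authors counted reads that fit several places is not given in the sources used here, and its part in these levels was not tested.

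The stretches below are shown because they are what the genomes share. They pair mt-Co2 (chrM:7325-7384, plus strand) with its copy Gm28661 (chr1:24615194-24615253, minus strand), and the start of mt-Nd3 (chrM:9459-9518, plus strand) with its copy Gm28438 (chr1:24613060-24613119, minus strand). Capitals mark the only mismatch, T3C, counted from 1 at the first base of mt-Nd3, with the mitochondrial base first.
mt-Co2: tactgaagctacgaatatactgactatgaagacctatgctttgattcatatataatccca
Gm28661: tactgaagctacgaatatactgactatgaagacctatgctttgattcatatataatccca
mt-Nd3: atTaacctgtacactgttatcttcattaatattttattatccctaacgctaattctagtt
Gm28438: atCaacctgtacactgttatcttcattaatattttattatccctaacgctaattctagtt

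**Figure D1:**
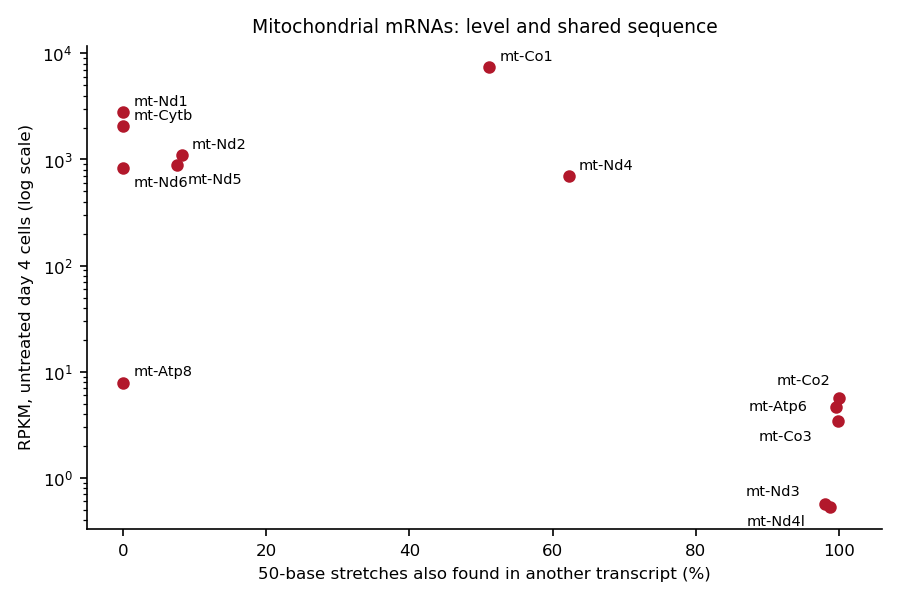
RPKM of the 13 mitochondrial mRNA genes in untreated day 4 cells (log axis) against the percentage of their 50-base stretches that also occur in another annotated transcript. The 7 genes at RPKM 696 or more have shares of 62.2% or less, and 5 of the 6 genes below RPKM 10 have shares of 98.0% or more.

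The calls were few and fell on both genomes. Over the 6 comparisons, 9 of 30 mitochondrial members (30%) and 8 of 84 nuclear members (9.52%) were called at least once, against 2708 of 12540 genes (21.6%) with an RPKM of at least 1. Both rRNA genes, 4 of 11 mRNA genes and 3 of 17 tRNA genes made up the mitochondrial calls. At 100 µM on day 4, 0.878% of such genes were called higher and 0.655% lower, and the only member called was mt-Rnr2, which fell. At 150 µM on day 4 the background was 5.14% higher and 4.6% lower, with 1 member higher and 5 lower. With 200 µM on day 4 it was 6.09% and 5.27%, with 5 members higher and 2 lower. On day 6 the background was 2.53% higher and 1.86% lower at 100 µM, with 1 member higher and 2 lower. It was 3.43% and 2.97% at 150 µM, with 1 higher and 3 lower, and 6.88% and 6.25% at 200 µM, with 4 higher and 4 lower. As shares of the 114 members, these counts lie near or below the background. Of the 30 mitochondrial members, 1, 5 and 3 were called in either direction with rising dose on day 4, and 3, 1 and 4 on day 6. Of the 84 nuclear members, 0, 1 and 4 were called on day 4, and 0, 3 and 4 on day 6. Of all 12540 genes, 192, 1220 and 1422 were called on day 4, and 550, 801 and 1645 on day 6. The nuclear share was below that of all genes throughout. The mitochondrial share was above it at 100 µM on both days and at 150 µM on day 4. It was near it at 200 µM on day 6 and below it in the other comparisons. These mitochondrial counts are small, and mt-Rnr2 is in each of them. All 5 called lower at 150 µM on day 4 were mitochondrial, a larger share of the 30 than the background of 4.6%.

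The mitochondrial 16S rRNA, encoded by mt-Rnr2 (chrM:1094-2675), was the only member called in all 6 comparisons, and its direction turned between days. This rRNA forms the large subunit of the mitochondrial ribosome. On day 4 its RPKM was 306 in untreated cells, 239 at 100 µM, 202 at 150 µM and 157 at 200 µM, lower at each higher dose. On day 6 it was 210 in untreated cells, 275 at 100 µM, 342 at 150 µM and 137 at 200 µM, so that the lower doses lay above untreated cells and the highest below. In the authors' deposited tables the log2 fold changes of mt-Rnr2 on day 4 were -0.32 ± 0.08, -0.56 ± 0.07 and -0.90 ± 0.11 (adjusted p 0.0131, 4.37e-13 and 2.87e-14). On day 6 the log2 fold changes were 0.40 ± 0.08, 0.80 ± 0.26 and -0.59 ± 0.14 (adjusted p 0.00019, 0.0396 and 0.000853, the authors' deposited tables). Between 12953 and 29844 reads per library lay behind each value.

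The day 6 change of mt-Rnr2 exceeded the day 4 change by 0.72 ± 0.12 at 100 µM and by 1.36 ± 0.27 at 150 µM (two-sided z test over all genes with Benjamini-Hochberg adjustment, adjusted p 8.16e-06 and 0.0012). At 200 µM the difference was 0.31 ± 0.18, with an adjusted p of 1.00. No other member passed this test at any dose, while an unadjusted p under 0.05 was reached by 7 members at 100 µM, by 14 at 150 µM and by 5 at 200 µM. The background of this test was 0.056%, 0.0959% and 0.064% of genes at those doses. With each standard error raised to at least the median of all genes, mt-Rnr2 was called at 150 µM but no longer at 100 µM. Untreated cells themselves differed between days, with RPKM 210 on day 6 and 306 on day 4.

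The 12S rRNA, encoded upstream by mt-Rnr1 (chrM:70-1024) and forming the small ribosomal subunit, did not follow mt-Rnr2 on day 4. Its RPKM was 330, 335, 371 and 452 at 0, 100, 150 and 200 µM on day 4, and 252, 284, 419 and 331 on day 6. Every nickel group lay above the untreated group of its day. The rise passed at 200 µM on both days, by 0.51 ± 0.12 on day 4 and 0.42 ± 0.11 on day 6 on the log2 scale (adjusted p 0.000647 and 0.00489 in the authors' deposited tables). At 150 µM on day 6 the larger log2 fold change, 0.84, carried an error of 0.37 and did not pass (adjusted p = 0.199 in the authors' deposited table). The ratio of mt-Rnr2 to mt-Rnr1 RPKM on day 4 was 0.927, 0.713, 0.544 and 0.347 from untreated cells up to 200 µM, and on day 6 0.833, 0.968, 0.816 and 0.414. At 200 µM the ratio was thus below that of untreated cells on both days. Of the 50-base stretches, 1.04% of mt-Rnr2 and 0 of mt-Rnr1 occur in another annotated transcript. The libraries were made from mRNA, so both values describe the rRNA that remained after that selection.

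**Figure D2:**
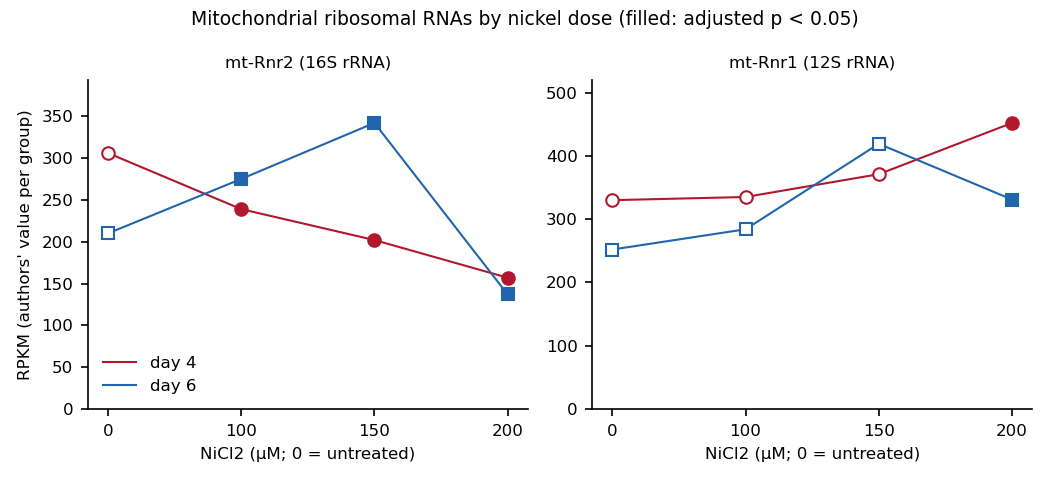
The authors' RPKM of mt-Rnr2 and mt-Rnr1 per group against NiCl2 dose, for day 4 (circles) and day 6 (squares). Filled symbols have an adjusted p under 0.05 against untreated cells of the same day. On day 4 mt-Rnr2 is lower at each higher dose, reaching 157, while mt-Rnr1 is higher, reaching 452.

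Among the mitochondrial mRNAs, mt-Cytb fell most often. It encodes cytochrome b, the one subunit of complex III made in mitochondria. Its day 4 RPKM was 2070 in untreated cells, 1890 at 100 µM and 1710 at both higher doses. On day 6 it was 2010, 1480, 1770 and 1350 in the same order. Every nickel group lay below its untreated group. The fall passed at 150 µM on day 4 (-0.23 ± 0.06 on the log2 scale, adjusted p = 0.00505), at 100 µM on day 6 (-0.44 ± 0.06, adjusted p = 4.66e-10) and at 200 µM on day 6 (-0.54 ± 0.16, adjusted p = 0.0135) in the authors' deposited tables. No overlap with another gene and no shared 50-base stretch was found for mt-Cytb.

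Complex I mRNAs of mitochondria moved little and in both directions. The only one to rise was mt-Nd6, the single mRNA of the minus strand, with RPKM 1060 at 200 µM and 823 in untreated cells on day 4 (log2 fold change 0.43 ± 0.10, adjusted p = 0.000981 in the authors' deposited table). On day 6 it had 783 at 200 µM and 716 in untreated cells, which did not pass. Its span overlaps mt-Nd5 on the opposite strand, and how the counting used strand is not given in the sources used here. On day 4 mt-Nd2 fell at 150 µM, to RPKM 947 against 1100 in untreated cells (-0.18 ± 0.05 on the log2 scale, adjusted p = 0.00411 in the authors' deposited table). On day 6 mt-Nd4 fell at 100 µM, to 493 against 601 in untreated cells (-0.28 ± 0.06, adjusted p = 0.000333 in the authors' deposited table). Both overlap a neighbour on the same strand, mt-Tw and mt-Nd4l, as mt-Nd1 does with mt-Ti. Of their 50-base stretches, 8.19% of mt-Nd2 and 62.2% of mt-Nd4 occur in another transcript. The values of mt-Nd2 and mt-Nd4 are uncertain for these reasons. Log2 fold changes of mt-Nd1 ranged from -0.23 to 0.28 and those of mt-Nd5 from -0.18 to 0.10, and none passed.

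Complexes IV and V gave no mitochondrial call. The RPKM of mt-Co1, the most abundant member, was 7360, 7390, 7550 and 7590 from untreated cells up to 200 µM on day 4, and 6520, 5950, 6220 and 5640 on day 6. Its log2 fold changes ran from -0.19 to 0.11. The low genes mt-Co2, mt-Co3, mt-Atp6 and mt-Atp8 had log2 fold changes between -0.48 and 0.68. Their implied errors were 0.36 to 0.46 (median per comparison), against 0.05 to 0.15 for the 7 abundant mRNAs. Changes of this size could therefore not be told from 0. The parts of depth and of shared sequence in these errors were not tested. Behind the values of mt-Co2 lay 168 to 218 reads per library.

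The tRNA genes, 59 to 75 bases long, stood at RPKM 1.17 to 235 among the 17 above the limit. Because the libraries were made from mRNA, these values need not measure mature tRNAs. Whether the reads came from tRNAs or from longer precursors was not tested. At 150 µM on day 4 the log2 fold change was negative in 16 of the 17 (median -0.59), and 2 were called. The asparagine tRNA gene mt-Tn fell to RPKM 56.7 at 150 µM, against 117 in untreated cells (-0.999 ± 0.27 on the log2 scale, adjusted p = 0.00523 in the authors' deposited table). A leucine tRNA gene, mt-Tl2, fell to 25.8 against 64.4 (-1.28 ± 0.37, adjusted p = 0.0121 in the authors' deposited table), and it overlaps mt-Ts2 on the same strand. At 200 µM on day 6 the threonine tRNA gene mt-Tt, which follows mt-Cytb, rose to RPKM 88.5 against 27.5 in untreated cells (1.70 ± 0.30, adjusted p = 1.7e-06 in the authors' deposited table). In the other 3 groups of that day mt-Tt lay between 27.5 and 32.5. At 150 µM on day 6 the log2 fold changes were positive in 14 of 17 (median 0.21) and none was called, nor had any an unadjusted p under 0.05 in the authors' DESeq2 table. Grouped by strand, the 9 mitochondrial genes of the minus strand had medians of -0.45 on day 4 and 0.34 on day 6 at 150 µM, and the 21 of the plus strand -0.18 and 0.19.

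Set against each other as groups, mitochondrial mRNAs and nuclear members stayed close on day 4. The median log2 fold change of the 11 mitochondrial mRNAs with rising dose was 0.03, -0.01 and 0.07, and that of the 84 nuclear members 0.03, 0.02 and 0.03. On day 6 the mitochondrial medians were -0.18, 0.19 and -0.10, and the nuclear ones -0.00, -0.07 and -0.09. The median of all genes with an RPKM of at least 1 lay between -0.01 and 0.01 in every comparison. Mitochondrial minus nuclear medians were -0.17, 0.26 and -0.01 with rising dose on day 6. No test was made of these differences. They mix abundant and low mRNAs. Day 6 medians of the 7 mRNAs with RPKM over 100 came to -0.20, 0.10 and -0.19 in the same order. The 4 mRNAs with RPKM under 10 gave -0.06, 0.50 and -0.09. At 150 µM the abundant mRNAs thus had a smaller positive median than all 11 together. At 200 µM their median lay further below the nuclear one. For day 4 the abundant mRNAs gave 0.01, -0.08 and 0.07. As log2 ratios of RPKM, the nuclear medians of day 4 were negative, at -0.01, -0.01 and -0.04. At 150 µM on day 6 mt-mRNAs had positive log2 fold changes in 10 of 11, but none was called or had an unadjusted p under 0.05, and the median implied error of a single one was 0.24. Without genes that overlap another on the same strand the mitochondrial minus nuclear difference at 150 µM on day 6 was 0.12. Without genes sharing sequence the day 4 difference at 200 µM was -0.09 where all genes gave 0.05.

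As summed RPKM, the 11 mitochondrial mRNAs stood at 1.21 times the nuclear members in untreated day 4 cells, and at 1.18, 1.16 and 1.22 times at 100, 150 and 200 µM. On day 6 the ratio was 0.992 in untreated cells, 0.864, 1.09 and 0.90 with rising dose. By complex the ratio in untreated day 4 cells was 1.79 for complex I, 1.58 for complex III, 2.48 for complex IV and 0.00259 for complex V. The value for complex V rests on mt-Atp6 and mt-Atp8, both listed under RPKM 10, and that for complex IV almost wholly on mt-Co1. Of the 50-base stretches, 51.1% of mt-Co1 and 62.2% of mt-Nd4 occur in another transcript. The part of shared sequence in the summed and single-complex ratios was not tested. For complex III, which has only mt-Cytb, every nickel group was below its untreated group, with 1.42, 1.33 and 1.35 against 1.58 on day 4 and 1.11, 1.45 and 1.08 against 1.49 on day 6. In untreated cells all 11 mitochondrial mRNAs were lower on day 6 than on day 4 (median log2 ratio of RPKM -0.21), whereas 62 of 84 nuclear members were higher (median 0.09). Over all genes the median was 0.01. This contrast between untreated groups has no test, since there is 1 value per group.

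**Figure D3:**
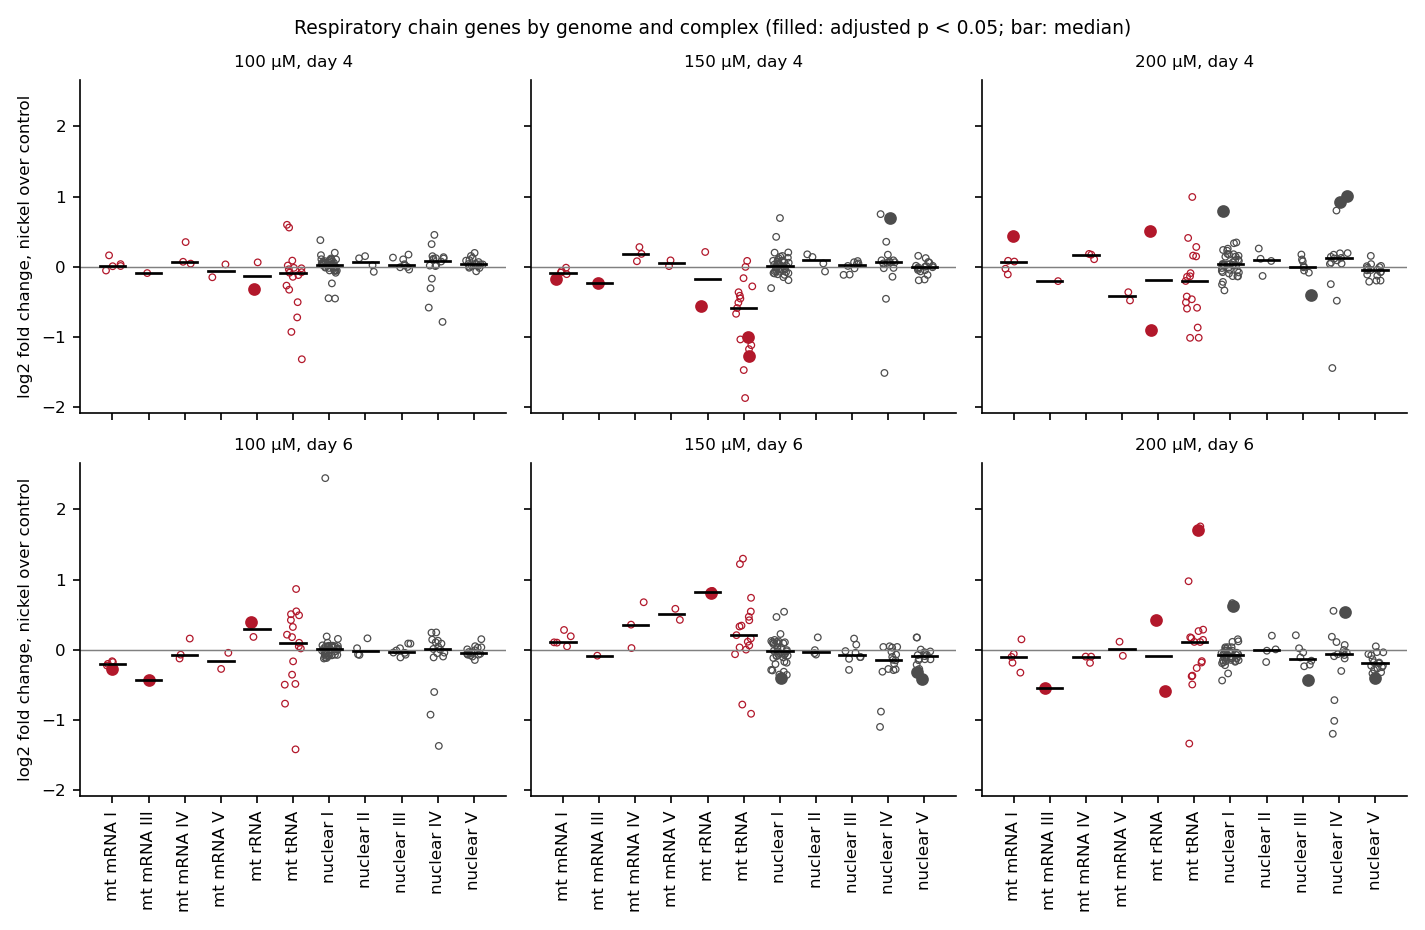
The authors' log2 fold change, nickel over untreated, of each of the 114 members in the 6 comparisons, by genome and complex (mitochondrial red, nuclear grey). Bars are medians and filled points have an adjusted p under 0.05. Nuclear points lie close to 0 except a few of complexes I and IV, and the tRNA points spread from -1.87 to 1.76.

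Nuclear members were abundant and mostly flat. The 2 highest of each complex in untreated day 4 cells were Atp5b (RPKM 1080) and Atp5a1 (507), the catalytic beta and the alpha subunit of complex V, Cox4i1 (458) and Cox8a (370) of complex IV, Ndufa4 (374) and Ndufa7 (315) under complex I names, Uqcr10 (284) and Uqcrh (257) of complex III, and Sdhc (104) and Sdhd (103) of complex II. Log2 fold changes of Atp5b lay between -0.04 and 0.01 in all 6 comparisons. Of the 80 nuclear members with an RPKM of at least 10 in untreated cells, 82.5 to 100% per comparison had a log2 fold change within 0.25 of 0. The share was 70.8 to 93.9% of all genes above that limit. At 200 µM the shares were 88.8% against 71.4% on day 4 and 85% against 70.8% on day 6. These sets were not matched on abundance. The median RPKM in untreated day 4 cells was 103.5 for the 84 nuclear members and 9.01 for all genes with an RPKM of at least 1. The part of abundance in this contrast was not tested.

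No nuclear member was called at 100 µM on either day in the authors' DESeq2 tables, where 4 had an unadjusted p under 0.05 on each day. Complex II, with all 4 genes between RPKM 71.8 and 115, had no call in any comparison, and at most 1 of its genes had an unadjusted p under 0.05. Sdhb, its iron-sulphur subunit, had positive log2 fold changes throughout, from 0.12 to 0.26.

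The 3 nuclear genes that rose are less common isoforms or relatives of an abundant subunit. Cox6b2 (chr7:4751792-4753094) encodes a form of subunit 6B known from testis. Its RPKM was 56, 67.2, 69.6 and 109 from untreated cells to 200 µM on day 4, and 75.9, 89.9, 70.2 and 109 on day 6. It rose at 200 µM on both days, by 1.01 ± 0.17 and 0.54 ± 0.16 on the log2 scale (adjusted p 8.42e-07 and 0.0111 in the authors' deposited tables). Its abundant counterpart Cox6b1 lay between RPKM 327 and 366, with log2 fold changes from -0.09 to 0.14.

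Cox7a1 (chr7:30184171-30186030) encodes the heart and muscle form of subunit 7A. On day 4 its RPKM was 23.5, 31.3, 36.9 and 42.9 with rising dose, higher at each step, and on day 6 29.1, 34.4, 28.3 and 42.4. It rose at 150 and 200 µM on day 4, by 0.69 ± 0.20 and 0.93 ± 0.22 on the log2 scale (adjusted p 0.00864 and 0.00119 in the authors' deposited tables). At 200 µM on day 6 the log2 fold change of 0.55 ± 0.23 did not pass (adjusted p = 0.0926 in the authors' deposited table). The ubiquitous Cox7a2 had RPKM 184 to 189 in the 4 groups of day 4, and 235, 226, 180 and 187 on day 6. Its day 6 log2 fold changes of -0.29 ± 0.10 at 150 µM and -0.30 ± 0.13 at 200 µM did not pass (adjusted p 0.0621 and 0.104 in the authors' deposited tables). Cox7a2l had RPKM 63.2 to 78.3 on day 4 and 56.8 to 73.1 on day 6, with no call. Summed RPKM of the muscle markers Ckm, Myh7 and Actn2 was 2.2, 1.44, 0.918 and 0.975 with rising dose on day 4, lower in each nickel group than in untreated cells.

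Ndufa4l2 (chr10:127514939-127517156), a relative of Ndufa4 described as induced by the hypoxia factor HIF-1, had RPKM 16.4, 11.7, 21.4 and 27.5 from untreated cells to 200 µM on day 4, and 24.4, 27.7, 24.7 and 37.1 on day 6. It rose at 200 µM on both days, by 0.80 ± 0.24 and 0.62 ± 0.15 on the log2 scale (adjusted p 0.0164 and 0.00139 in the authors' deposited tables). Its span overlaps Shmt2 on the opposite strand. Ndufa4 itself had log2 fold changes from -0.15 to 0.09.

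The isoform pairs Cox4i1 and Cox4i2, Cox6a1 and Cox6a2, and Cox8a and Cox8c gave no call above the limit. Cox4i2, a variant of subunit 4 described as responsive to oxygen, was low, with RPKM 1.87 to 2.35 in nickel groups and 3.32 in untreated cells on day 4, and 1.45 to 2.17 against 3.31 on day 6. All its log2 fold changes were negative, from -0.46 to -1.10, and none passed. Those of Cox4i1 ran from 0.04 to 0.14. Cox6a1 and Cox8a stayed between RPKM 252 and 425 in all groups. Cox6a2, below the limit with at most 0.494, was called lower at 200 µM on day 6 (RPKM 0.0123 against 0.494 in untreated cells, adjusted p = 0.0452 in the authors' deposited table). Cox8c, a testis form, had RPKM 0.711 to 1.69.

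**Figure D4:**
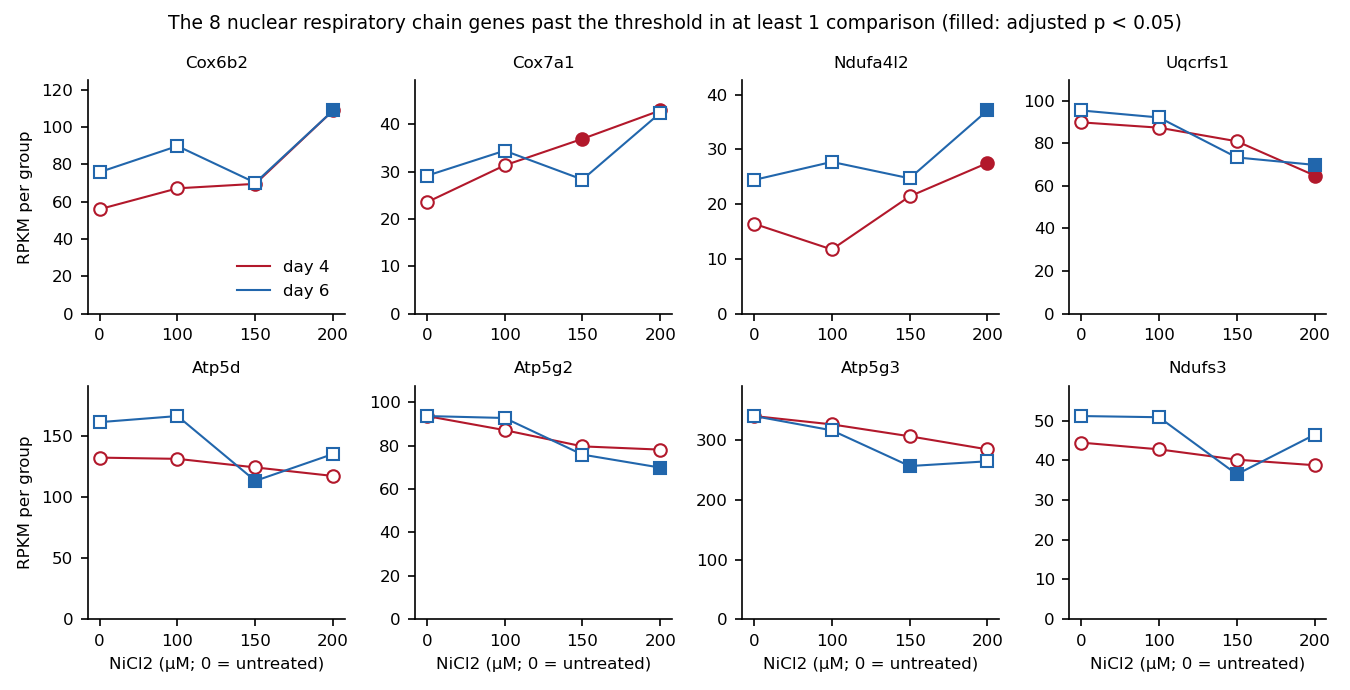
The authors' RPKM per group against NiCl2 dose for the 8 nuclear members called in at least 1 comparison, on day 4 (circles) and day 6 (squares), each panel on its own axis from 0. Filled symbols have an adjusted p under 0.05. Cox6b2, Cox7a1 and Ndufa4l2 are highest at 200 µM, and Uqcrfs1 is lowest there.

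Of the 5 nuclear genes that fell, Uqcrfs1 (chr13:30540312-30545316) did so on both days. It encodes the Rieske iron-sulphur protein, which hands electrons within complex III. Its RPKM was 89.9, 87.4, 81 and 64.9 from untreated cells to 200 µM on day 4, and 95.5, 92.2, 73.4 and 69.9 on day 6, lower at each step. The fall passed at 200 µM, with -0.41 ± 0.12 on day 4 and -0.43 ± 0.12 on day 6 on the log2 scale (adjusted p 0.00955 and 0.00673 in the authors' deposited tables). The other 7 nuclear members of complex III had log2 fold changes between -0.24 and 0.21, and none was called. At 200 µM on day 6 both Uqcrfs1 and mt-Cytb, from different genomes, were thus called lower within complex III.

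ATP synthase genes leaned low on day 6. At 200 µM 16 of 17 nuclear members of complex V had a negative log2 fold change (median -0.20), against 65 of all 84 nuclear members (median -0.09), and 1 was called, although 6 had an unadjusted p under 0.05. Atp5g2, one of 3 genes for the membrane subunit c, fell to RPKM 69.9 at 200 µM, against 93.7 in untreated cells (-0.40 ± 0.13 on the log2 scale, adjusted p = 0.0188 in the authors' deposited table). Atp5g3 fell at 150 µM, to 257 against 341 (-0.32 ± 0.08, adjusted p = 0.0048 in the authors' deposited table), and its 265 at 200 µM did not pass. Atp5g1 lay between 123 and 148 in all groups with no call. Atp5d, the delta subunit, fell at 150 µM, to 113 against 161 in untreated cells (-0.42 ± 0.10, adjusted p = 0.00305 in the authors' deposited table). Ndufs3, a core subunit of complex I, fell in the same group, to RPKM 36.5 against 51.2 (-0.40 ± 0.13, adjusted p = 0.046 in the authors' deposited table). Recentred on the median of all genes, that call was lost (adjusted p = 0.0622). Of the 50-base stretches, 39.7% of Ndufs3 and 14.8% of Atp5g2 also occur in other transcripts, and Atp5d overlaps Bc1 on the opposite strand, so these values are uncertain. Shared sequence also touches Ndufs5, listed at RPKM 0.231 to 2.42 with 31.1% of its 50-base stretches in another transcript, while the symbol Ndufs5-ps was listed at 17.8 to 28.4.

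Promoters are shown for Cox6b2 and Cox7a1, which both rose at 200 µM on day 4, and for Uqcrfs1, which fell there. Each is the 250 bases before the annotated start (RefSeq, GRCm38.p6), at chr7:4753095-4753344 (minus strand), chr7:30183921-30184170 (plus) and chr13:30545317-30545566 (minus). Capitals mark matches on either strand to TGCGCA (the half-site of NRF1, a regulator of many respiratory genes), CCGGAAG (an ETS-type site, as bound by GABPA) and ACGTG or GCGTG (the core of the hypoxia response element, for HIF). The last pair can overlap where both strands match.
Cox6b2: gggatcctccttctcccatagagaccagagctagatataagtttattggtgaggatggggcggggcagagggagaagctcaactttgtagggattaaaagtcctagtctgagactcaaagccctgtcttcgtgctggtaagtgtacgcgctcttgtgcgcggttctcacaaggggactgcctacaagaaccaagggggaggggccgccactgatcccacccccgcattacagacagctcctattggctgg
Cox7a1: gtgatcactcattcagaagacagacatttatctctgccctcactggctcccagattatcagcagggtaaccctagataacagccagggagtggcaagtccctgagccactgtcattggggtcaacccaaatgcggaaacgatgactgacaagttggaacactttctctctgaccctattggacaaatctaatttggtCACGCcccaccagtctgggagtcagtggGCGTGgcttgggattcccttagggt
Uqcrfs1: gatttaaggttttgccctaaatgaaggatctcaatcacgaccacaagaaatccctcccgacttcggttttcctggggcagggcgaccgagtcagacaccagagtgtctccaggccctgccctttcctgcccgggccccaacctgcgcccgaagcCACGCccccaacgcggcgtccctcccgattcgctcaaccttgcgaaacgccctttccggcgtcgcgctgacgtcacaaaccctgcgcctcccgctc

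Cox6b2 had no match, Cox7a1 had 2 to the hypoxia core and Uqcrfs1 had 1. Of the 84 nuclear members, 68 matched the promoter table by symbol. TGCGCA occurred in 20.6% of these, against 13.9% of genes with an RPKM of at least 1 and 7.36% of all genes in the table. CCGGAAG occurred in 17.6%, against 16.2% and 7.83%. The hypoxia core, short and therefore common, occurred in 54.4%, against 62.3% and 41.5%. A match is a description of the sequence and no evidence of binding.

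Genes that act on the chain were read from 14 lists. None of 4 assembly factors of complex II and 5 of complex III was called in the authors' DESeq2 tables, and at most 1 of each list had an unadjusted p under 0.05 in any comparison. Over the 6 comparisons 3 of 16 complex I assembly factors, 1 of 24 for complex IV (Pet100) and 1 of 4 for complex V (Atpaf1) were called, against 21.6% of all genes. Tmem126a, needed to assemble complex I, fell to RPKM 34.3 at 200 µM on day 6, against 53.2 in untreated cells (-0.61 ± 0.16 on the log2 scale, adjusted p = 0.00239 in the authors' deposited table). Ndufaf4 fell to 8.22 at 200 µM on day 4, against 12.2, and Ndufaf1 rose to 19.4 at 150 µM on day 6, against 13.3 (authors' deposited table, adjusted p 0.00915 and 0.0162). At 150 µM Pet100 rose on day 4, to RPKM 13 against 9.16, and Atpaf1 fell on day 6, to 2.61 against 6.11 (adjusted p 0.0444 and 0.0327 in the authors' deposited tables).

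Of 16 genes of coenzyme Q, cytochrome c and related carriers, 4 were called (25%, against 21.6% of all genes). Coq3, a methyltransferase of coenzyme Q synthesis, rose at 200 µM on both days, to RPKM 11.4 against 7.22 in untreated cells on day 4 and 11.2 against 7.52 on day 6 (adjusted p 0.00458 and 0.00213 in the authors' deposited tables). Coq7, a hydroxylase of the same pathway, fell to 23.7 at 200 µM on day 6, against 34 in untreated cells (adjusted p = 0.0179 in the authors' deposited table). Coq2 and Ndufab1, an acyl carrier protein and complex I subunit, fell at 150 µM on day 6, to 9.61 against 15.9 and to 31.6 against 59.1 (adjusted p 0.0103 and 0.00141 in the authors' deposited table).

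Of 19 genes for mitochondrial RNA processing and stability, 5 were called (26.3%, against 21.6% of all genes). Lrpprc, which stabilises mitochondrial mRNAs, fell to RPKM 33 at 150 µM and 26.8 at 200 µM on day 4, against 40.4 in untreated cells (-0.25 ± 0.06 and -0.53 ± 0.14 on the log2 scale, adjusted p 0.00248 and 0.00258 in the authors' deposited tables). It also fell at 200 µM on day 6, to 25.2 against 37.9 (-0.57 ± 0.14, adjusted p = 0.00148 in the authors' deposited table). Supv3l1, a helicase of mitochondrial RNA decay, fell to 21 and 19.5 at 150 and 200 µM on day 4, against 27 in untreated cells (adjusted p 0.0194 and 0.0271 in the authors' deposited tables). Fastkd2, known in human cells to bind the 16S rRNA, fell at 200 µM on day 6, to 11.8 against 16.8 (adjusted p = 0.0163 in the authors' deposited table). Ptcd2 fell at 200 µM on day 4, to RPKM 21.5 against 30.3 (adjusted p = 0.0411 in the authors' deposited table), and Pnpt1 was called higher at 150 µM on day 4.

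Of 10 mtDNA transcription genes, 2 were called (20%, against 21.6% of all genes). Tefm, the elongation factor, fell at 200 µM to RPKM 14.1 against 21.3 on day 4 and to 13.2 against 20.1 on day 6 (adjusted p 0.0277 and 0.00423 in the authors' deposited tables). Tfam, which packages mtDNA and starts its transcription, fell at 100 µM on day 6, to 24.3 against 28.7 (-0.23 ± 0.07 on the log2 scale, adjusted p = 0.0234 in the authors' deposited table). Its other log2 fold changes, from -0.02 to -0.33, did not pass. Polrmt, the polymerase, ran from -0.06 to 0.12, also without a call. Among 10 replication genes 1 was called (10%). Polg rose at 150 µM on day 4, to 21 against 18.9 (adjusted p = 0.039 in the authors' deposited table).

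Of 9 listed regulators of nuclear respiratory genes 7 were above the limit, and 1 was called (14.3%, against 21.6% of all genes). Gabpa rose at 150 µM on day 4, to RPKM 40.6 against 36.4 in untreated cells (adjusted p = 0.0494 in the authors' deposited table). Nrf1 had log2 fold changes between -0.23 and 0.16 and Esrra between -0.15 and 0.11, and neither was called. Of 7 HIF-linked mitochondrial genes 2 were called (28.6%), Ndufa4l2 and Bnip3, a mitophagy receptor. Bnip3 had RPKM 59.8 and 68.8 at 150 and 200 µM on day 4, against 44.7 in untreated cells, and 81.1 at 200 µM on day 6, against 55.5 (adjusted p 0.000112, 1.5e-05 and 0.000168 in the authors' deposited tables). Pdk1, another gene of this list, was not called, with log2 fold changes from -0.20 to 0.03.

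Of 17 genes for iron-sulphur cluster assembly 1 was called (5.88%, against 21.6% of all genes). Nfu1, a late-acting carrier of clusters to their target proteins, fell at 150 and 200 µM on day 4, to RPKM 47 and 42.1 against 62.5 in untreated cells, and at 200 µM on day 6, to 41.3 against 58.3 (adjusted p 0.0065, 0.00733 and 0.0161 in the authors' deposited tables). Of 14 citrate cycle genes 3 were called (21.4%). Idh3a fell at 200 µM on both days, to 47.7 against 62.7 on day 4 and 46.1 against 61.1 on day 6 (adjusted p 0.0276 and 0.0122 in the authors' deposited tables). Idh2 rose to 80.9 at 200 µM on day 4, against 68.1 in untreated cells, and Suclg2 to 36.6 at 150 µM, against 31.2 (adjusted p 0.047 and 0.0106 in the authors' deposited tables).

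The 78 genes of the mitochondrial ribosome, whose rRNAs are mt-Rnr1 and mt-Rnr2, gave 11 calls, all lower, which is 14.1% of the list against 21.6% of all genes called in any comparison. Of these, 9 fell at 200 µM on day 6, where 6.25% of all genes were called lower and the list's median log2 fold change was -0.18 against -0.01 for all genes. Mrps18a fell to RPKM 26.8 against 42.5 in untreated cells, Mrpl3 to 23.6 against 36.8 and Mrpl20 to 37.3 against 56.4 (adjusted p 0.00103, 0.00288 and 0.00488 in the authors' deposited table). Mrps24 fell at 150 µM on day 6, to 26.9 against 42.2 (adjusted p = 0.00258 in the authors' deposited table). At 100 µM no gene of this list was called on either day, where 1 and 4 had an unadjusted p under 0.05 in the authors' DESeq2 tables.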

How the data were processed

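RNA sequencing of 16 libraries in 8 groups was analysed from 6 deposited tables, 1 per dose and day. STAR, DESeq2 and the build GRCm38 are named in the submitters' processing notes, without versions or settings. Per the file headers, the authors gave the RPKM of each group, the log2 fold change of nickel over control, its p-value and the adjusted p. No value per library is in these tables, so no new test per gene was made: the authors' adjusted p-values were counted at 0.05. The implied standard error is the size of the log2 fold change divided by the normal deviate of its p-value. The fold changes of day 6 and day 4 were compared by a two-sided z test, with Benjamini-Hochberg adjustment over all genes (SciPy 1.17.1), and the computation was tested on simulated data. Library depths were recovered from steps in low RPKM values of single-exon genes, with 92.9 to 97.6% of them on the steps (tolerance 0.8%), against 7.75 to 13.1% of the log range. Reads per library are estimates from these depths.

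Coordinates are the authors', with starts counted from 1. Of 126 genes that match the symbols, 125 were found in GENCODE M21 by name or RefSeq synonym, at an overlapping place. Shared sequence is the percentage of 50-base stretches of a transcript that occur in a transcript of another gene. The members, the lists and the naming rule were chosen with earlier results of these data known. The rule names all mitochondrial mRNA genes, called nuclear members and the 2 most abundant of each complex, isoform pairs, up to 4 called genes of each list, and the chosen regulators. The tRNA genes, Sdhb, Ndufs5, Ndufs5-ps, Pnpt1, the genes beside the limit and rRNA genes without a day difference were named after their values were seen. The alternatives were other thresholds, RPKM limits, scalings and exclusions.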

Additional observations from a re-analysis of the deposited data

Results flagged for a closer look

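The log2 fold change of mt-Rnr2, the 16S rRNA gene, differed between the days at 2 doses. At 100 µM the value on day 6 minus that on day 4 was 0.72 ± 0.12 (0.40 on day 6 and -0.32 on day 4). At 150 µM it was 1.36 ± 0.27 (0.80 on day 6 and -0.56 on day 4). The test of the difference gave adjusted p 8.16e-06 and 0.0012 (two-sided z test, Benjamini-Hochberg over all genes). Untreated cells had an RPKM of 210 on day 6 and 306 on day 4, and the 150 µM libraries of day 6 had depths of 34 and 60.9 megareads. The part of either in these differences was not tested.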

How the results depend on the processing

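No paired analysis was possible because the tables hold 1 value per group, and leaving out each replicate was not possible for the same reason. No called log2 fold change changed sign under the alternatives run. At an adjusted p under 0.01 the count of called members became 0 for mitochondrial genes at 100 µM on day 4 and at 150 µM on day 6, and 2 for nuclear genes at 200 µM on day 6. At 0.1 it became 3 for nuclear genes at 150 µM on day 4 and 7 on day 6 both at 150 µM and at 200 µM. With a log2 fold change of at least 0.5 also required, mitochondrial counts became 0 at 100 µM on both days and 3 at 150 µM on day 4, and nuclear counts 0 at 150 µM and 2 at 200 µM on day 6. An alternative chosen after seeing the data left out members with at least 10% of their 50-base stretches in a transcript of another gene. There the median of mitochondrial mRNAs at 200 µM on day 4 was -0.069 and its difference to nuclear members -0.0897. Without same-strand overlaps the values at 150 µM on day 6 were 0.0472 and 0.117. With standard errors held to at least their median, 0 members differed between days at 100 µM. Recentring, also added after seeing the data, took Ndufs3 at 150 µM on day 6 to an adjusted p of 0.0622. Of 390 group medians and differences of medians under all alternatives, 28 had the other sign, most of them nuclear medians of day 4 under RPKM ratios, and none of these had a size over 0.0731 in the values reported. Other RPKM limits changed no sign. Large implied errors limit members of low RPKM, such as Cox8c, Cox7b2, Ndufs5, the low mitochondrial mRNAs and the tRNA genes. The part of depth in these errors was not tested.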
